A study of Mus musculus with 6 samples.

Results

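The MAP kinase cascade family covered here is the set of 32 genes whose symbol on the array platform is Mapk, Map2k, Map3k or Map4k followed by a number. They were chosen by a rule on the name, out of 17097 genes with a symbol of their own, with earlier results of these data known. The 32 genes had 65 of the 45037 probe sets tested. The set held 10 MAP kinases, 6 MAP kinase kinases (Map2k), 13 MAP kinase kinase kinases (Map3k) and 3 kinases of the Map4k group. The deleted gene, Map3k7, and Map3k14 were left out by the rule. Mapk3, Mapk11 and Map2k7 were not analysed here.

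MAP kinase cascades pass a signal through successive kinases: a Map4k or a small GTPase acts on a Map3k, which phosphorylates a Map2k, which phosphorylates a MAP kinase on a threonine and a tyrosine of its activation loop. The branches end in ERK, JNK, p38 and ERK5 kinases, which act on transcription factors such as AP-1 subunits and on other kinases. In dendritic cells these branches run downstream of Toll-like and cytokine receptors, and TAK1, the Map3k7 product, is a Map3k that feeds the JNK and p38 branches. Kinase activity is set mainly by phosphorylation, whereas the arrays measured mRNA.

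CD11c+ dendritic cells had been sorted by flow cytometry from spleens of C57Bl/6 mice, and each sample was run on 1 Affymetrix array. The 3 control samples were wild-type, and the 3 knockout samples carried the genotype that the labels write as Map3k7CreER, a Cre that tamoxifen switches on. Mice of either genotype were given tamoxifen for 3 days, so the drug is shared and only the knockout group carries the transgene. The promoter that drives the Cre is not given in the sources used here, so whether other cells of the mice were also deleted is not known. No label says whether samples of a group are from different animals, and the p-values then cover only the spread between these samples, which may be technical. In sorted bulk cells, fewer cells of a type and less RNA per cell cannot be told apart.

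Values are RMA signals on a log2 scale, where a difference of 1 is a 2-fold change, and array medians lay between 3.77 and 3.81. A gene near that median may be unexpressed. Map3k7 read 6.68, 6.69 and 6.57 on the wild-type arrays and 4.04, 4.46 and 3.64 on the knockout arrays. Its groups did not overlap, and its level fell by 2.60 (SE 0.19, limma, Benjamini-Hochberg adjusted p = 0.00128). Those values are from its brightest probe set. The next brightest stood at -2.34 and -3.25 (limma adjusted p = 0.0181 and 0.000165). Its dimmest, near the array median, stood at -0.19 and -0.65 (limma adjusted p = 0.65 and 0.239). The dendritic cell genes Itgax, Flt3, Zbtb46, Cd74 and H2-Ab1 were bright in both groups, with a mean level of 11.34 to 11.46 in wild-type and 11.23 to 11.34 in knockout arrays. None of the 5 passed, but they did not stand together: Zbtb46 was at -0.75 (limma adjusted p = 0.0621, every knockout array lower), Flt3 at 0.35 with every knockout array higher and Itgax at -0.22. Markers of other cells were not all dim. The B-cell genes Ms4a1 and Cd79b read 8.60 and 6.81 in wild-type cells, and the neutrophil gene S100a9 read 6.73, whereas Pax5, Cd79a, Ncr1, Elane and Mpo read between 3.33 and 3.79 in both group means.

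Among the other kinases of the cascades, 1 mRNA passed the test between knockout and wild-type cells. With limma and Benjamini-Hochberg adjustment over all 45037 probe sets, 1 of the 32 genes rose, Mapk13, 0 fell and 31 did not pass an adjusted p under 0.05. Over all 17097 genes 1.67% passed, 1.08% as higher and 0.591% as lower. Before adjustment, 8 of the 32 genes (25%) had p under 0.05, against 16.4% of all genes. The median difference of the members was 0.04, against -0.02 for all genes, and the median size of a difference was 0.18 against 0.12. Members ran from -0.40 for Mapk9 to 0.92 for Mapk13.

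**Figure D1:**
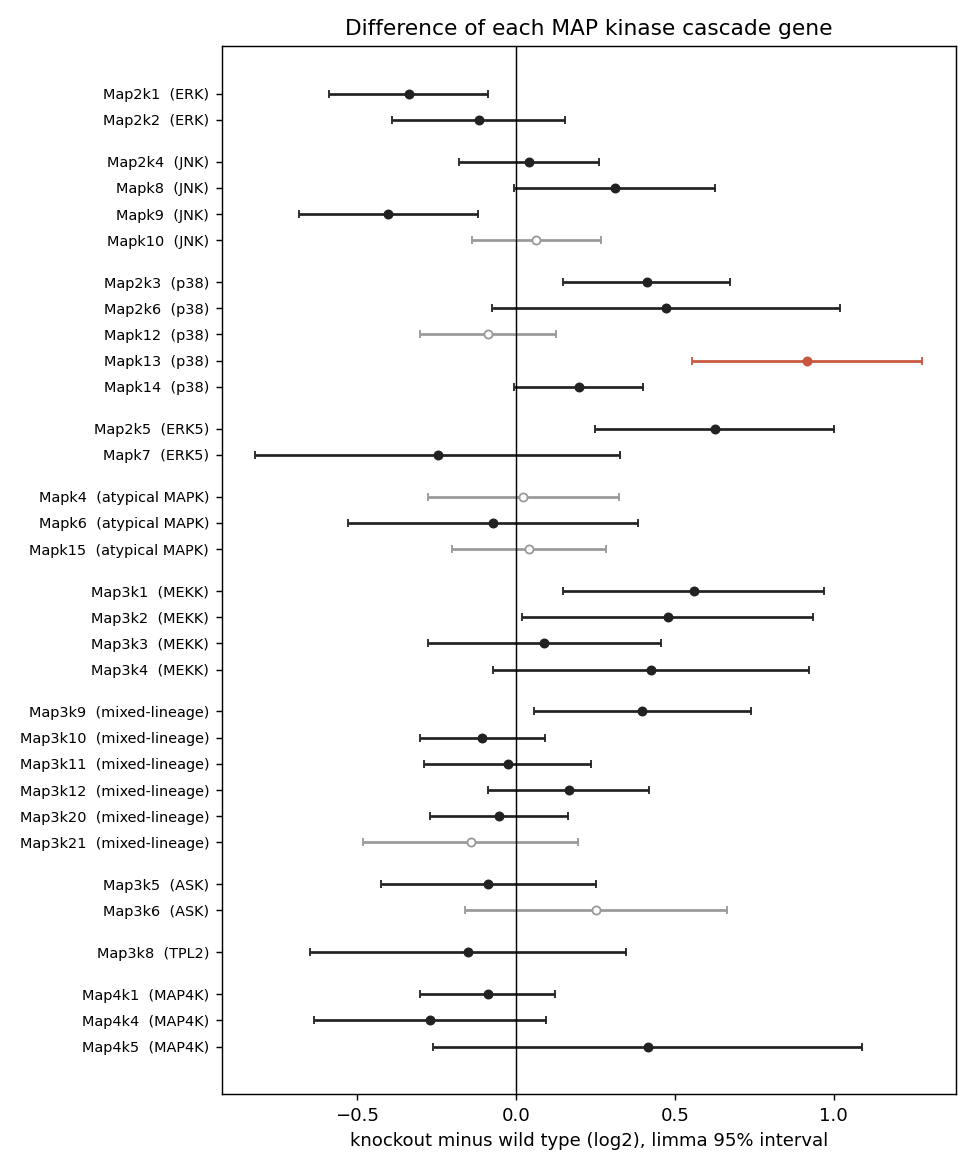
Difference between knockout and wild-type arrays for each of the 32 genes, on the log2 scale, ordered by branch or kinase group, with 95% intervals from limma. Mapk13, in red, is the gene that passed the threshold, and open grey points mark the 6 genes whose mean lay below the array median.

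The intervals show how much room the arrays leave. For 28 of the 32 genes the 95% interval from limma, not adjusted for the number of genes, lay within 1 on the log2 scale, that is, within a 2-fold change either way. The other 4 were Mapk13, Map2k5, Map2k6 and Map4k5, whose upper bounds were 1.28, 1.0, 1.02 and 1.09. For 15 genes the interval lay within 0.5.

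The knockout arrays all lay above the wild-type arrays for 7 genes and all below for 3, against 10.6% of all genes in each direction. Non-overlap was therefore seen for 31.2% of the members and for 21.2% of all genes. Among genes at or above the median level it was seen for 10 of 26 members, or 38.5%, and for 27.6% of all such genes. The 7 higher genes were Mapk13, Map2k5, Map3k1, Map2k3, Map3k9, Mapk8 and Mapk14, and the 3 lower genes were Mapk9, Map2k1 and Map3k10.

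**Figure D2:**
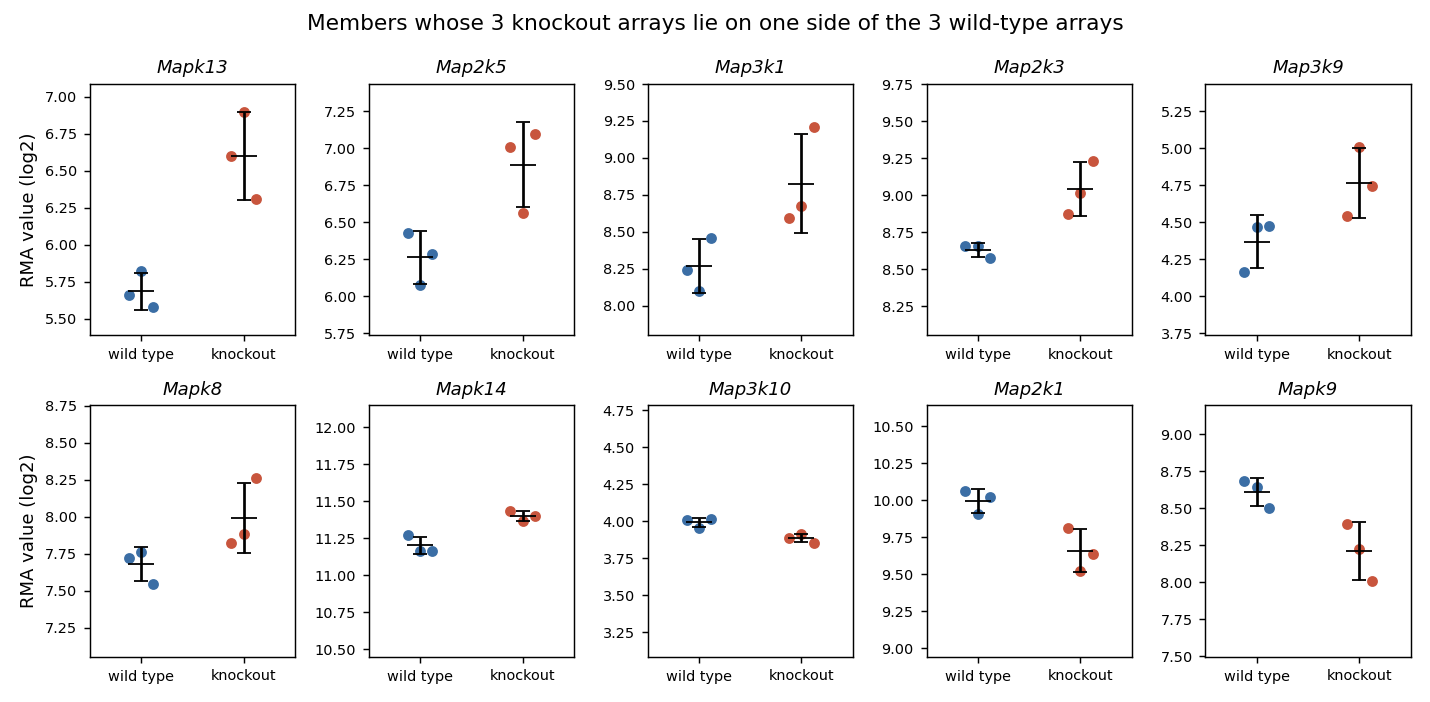
RMA values (log2) on every array for the 10 genes whose groups did not overlap, ordered by difference, with the mean and SD of each group as black bars. All panels span the same log2 range, so the gap between groups can be compared by eye and is widest for Mapk13 and narrowest for Map3k10.

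The p38 kinases respond to stress and inflammatory signals and are activated by the products of Map2k3 and Map2k6. Mapk13, which encodes p38 delta, read 5.66, 5.82 and 5.58 on the wild-type arrays and 6.60, 6.90 and 6.31 on the knockout arrays. Every knockout array was higher than every wild-type array. The difference was 0.92 (SE 0.16, limma adjusted p = 0.0404), or 1.89-fold higher in knockout cells, from 5.69 ± 0.12 to 6.60 ± 0.30 (SD, n = 3 arrays each). The call lay close to the threshold. With 1 array left out the difference ran from 0.77 to 1.06, and Mapk13 passed in 1 of 6 fits, the fit without knockout replicate 3. Without wild-type replicate 1, 2 or 3 its limma adjusted p was 0.156, 0.109 and 0.101, and without knockout replicate 1 or 2 it was 0.0725 and 0.125. After a further quantile normalization of the arrays the difference was 0.86 (limma adjusted p = 0.0611). Mapk13 had 1 probe set, so no second one could check it.

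As lists, macrophage and neutrophil markers had higher mean levels on the same arrays as Mapk13. Of 8 macrophage markers 3 rose, Cd163, Cd5l and Mertk, 0 fell, and 7 of the 8 differences were positive, while Adgre1, a macrophage surface receptor, stood at -0.28 and Spic, a transcription factor of red pulp macrophages, at 0.00474. The mean level of the list was 6.09 to 6.30 in wild-type and 6.61 to 7.04 in knockout arrays. The red pulp macrophage receptor Cd163 read 3.81 in the wild-type group, about the level of the median probe set, and 5.38 in the knockout group. Of 6 neutrophil markers 0 passed and 6 were positive, and their mean level ran from 4.29 to 4.68 in wild-type and from 4.84 to 5.84 in knockout arrays. S100a8 stood at 2.28 (limma adjusted p = 0.147) and S100a9 at 1.53 with overlapping groups (limma adjusted p = 0.343). The neutrophil granule genes Mpo, Elane, Ltf and Ngp stood between 0.01 and 0.15, all with overlapping groups, and Mpo and Elane stayed below the array median. Among the knockout arrays, replicate 3 was the lowest for Mapk13 and both lists, while Cd163 and Cd5l were highest in replicate 1 and Mapk13 and Mertk in replicate 2.

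The mean levels of the erythroid, T-cell and B-cell marker lists were lower on every knockout array, with 0 markers past the threshold. The mean of 4 erythroid markers ran from 4.79 to 5.61 in wild-type and from 3.83 to 4.38 in knockout arrays, with the globin Hba-a1 at -3.57 (limma adjusted p = 0.0713). The mean of 4 T-cell markers ran from 5.06 to 5.31 and from 4.68 to 4.91, with Cd4, which some dendritic cells also carry, at -0.97 (limma adjusted p = 0.0535). For 4 B-cell markers the ranges were 5.61 to 5.70 and 5.39 to 5.51, with Ms4a1 at -0.51 (limma adjusted p = 0.275). For 4 NK-cell markers the ranges overlapped, at 3.70 to 3.92 in wild-type and 3.65 to 3.72 in knockout arrays. So did those of 2 plasmacytoid dendritic cell markers, at 7.15 to 7.80 and 6.86 to 7.44. The part of any of these cells in the Mapk13 difference was not tested.

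**Figure D3:**
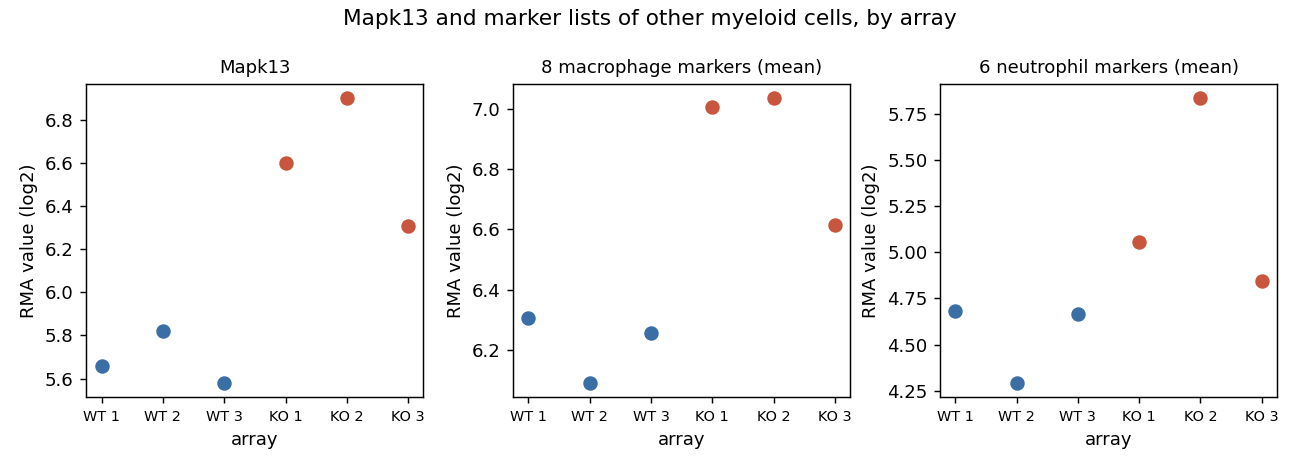
Mapk13 and the mean of 8 macrophage and 6 neutrophil marker genes on each of the 6 arrays, as RMA values (log2). In all 3 panels every knockout array (red) lies above every wild-type array (blue). The largest differences on the neutrophil list were those of S100a8 and S100a9, at 2.28 and 1.53. Knockout replicates 1 and 2 are nearly level for the macrophage markers, at 7.01 and 7.04.

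Mapk14 encodes p38 alpha, the main p38 kinase of most cells, and lies next to Mapk13 on chromosome 17, with a pseudogene between them in the RefSeq gene table (GRCm38.p6). Its brightest probe set read 11.27, 11.16 and 11.17 in wild-type and 11.43, 11.37 and 11.40 in knockout arrays. The groups did not overlap, but the difference was small, 0.20 (SE 0.09, limma adjusted p = 0.423). Of its 6 probe sets 5 were higher in knockout cells and 0 passed. The second brightest had a difference of 0.58 (SE 0.15, limma adjusted p = 0.132). Mapk12, the gene of p38 gamma, was below the array median, with 3.70 ± 0.09 and 3.61 ± 0.02 (SD).

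The promoters of these neighbouring p38 genes are shown because 1 of them passed the threshold and the other did not. Each line gives the 250 bases before the transcription start from the RefSeq promoter table (GRCm38.p6), on the plus strand, at chr17:28769067-28769316 for Mapk13 and chr17:28691092-28691341 for Mapk14, the first of its 2 listed starts. Capitals mark GC boxes, the Sp1 motif GGGCGG on either strand.
Mapk13: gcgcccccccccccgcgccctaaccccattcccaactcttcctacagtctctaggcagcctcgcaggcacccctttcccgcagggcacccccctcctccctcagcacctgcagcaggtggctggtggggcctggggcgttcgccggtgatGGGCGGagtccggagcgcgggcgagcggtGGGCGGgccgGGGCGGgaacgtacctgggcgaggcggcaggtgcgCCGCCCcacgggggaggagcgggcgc
Mapk14: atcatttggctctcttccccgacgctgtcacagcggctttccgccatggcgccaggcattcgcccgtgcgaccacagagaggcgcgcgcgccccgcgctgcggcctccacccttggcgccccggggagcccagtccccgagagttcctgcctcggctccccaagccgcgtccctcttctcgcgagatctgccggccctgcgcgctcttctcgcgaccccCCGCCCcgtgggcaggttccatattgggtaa
Mapk13 held 4 GC boxes in this window and Mapk14 held 1. Neither window held an AP-1 site (TGANTCA), a cAMP response element (TGACGTCA) or the NF-kB motif GGGANTTTC, searched on both strands, which says only that these letters are not in these 250 bases. Of the 32 genes 27 had an entry in the table, and at the first listed start 18 of the 27 (66.7%) held a GC box, against 32.9% of all 27025 genes with an entry. Those 27025 genes were not limited to genes measured on the arrays, so the shares here are of unlike sets. An AP-1 site was found for 2 of 27, Map2k6 and Map3k10 (7.41%, against 6.87% of all), and a cAMP response element for 1, Mapk10 (3.7%, against 1.62% of all). The NF-kB motif was found for 0 of 27, against 0.977% of all.

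Map2k3 and Map2k6, the 2 Map2k genes placed in the p38 branch here, both stood higher without passing. Map2k3, whose product is MKK3, read 8.65, 8.66 and 8.57 in wild-type and 8.87, 9.01 and 9.23 in knockout arrays. Its groups did not overlap, and it differed by 0.41 (SE 0.11, limma adjusted p = 0.164). Its second probe set gave 0.58 (limma adjusted p = 0.157). Map2k6, the gene of MKK6, read 7.03, 6.67 and 7.22 in wild-type and 7.97, 7.23 and 7.13 in knockout arrays. Here the groups overlapped, and knockout replicate 1 stood above the rest. Map2k6 differed by 0.47 (SE 0.24, limma adjusted p = 0.492), and by 0.21 without that array. Of the 5 genes placed in the p38 branch (Mapk12, Mapk13, Mapk14, Map2k3 and Map2k6) 4 had positive differences, with a median of 0.41, and 1 passed. That median depends on the placement, since Map2k4, at 0.04, was counted with the JNK genes.

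JNK kinases phosphorylate Jun and other AP-1 subunits, and the 2 JNK genes above the array median had differences of opposite sign. Mapk8, the gene of JNK1, read 7.72, 7.76 and 7.55 in wild-type and 7.82, 7.89 and 8.26 in knockout arrays. Each knockout array was higher, by a narrow margin for replicates 1 and 2, with a difference of 0.31 (SE 0.14, limma adjusted p = 0.418). Mapk9, the gene of JNK2, read 8.69, 8.65 and 8.50 in wild-type and 8.40, 8.23 and 8.01 in knockout arrays. Each knockout array was lower, with a difference of -0.40 (SE 0.12, limma adjusted p = 0.206).

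The other probe sets of both JNK genes pointed the same way as the brightest. All 4 Mapk8 probe sets were higher in knockout cells, with differences from 0.10 to 0.49, and all 3 Mapk9 probe sets were lower, from -0.40 to -0.19. Neither gene passed the threshold, over all probe sets, in any of 14 alternative settings each, in which Mapk8 ran from 0.18 to 0.40 and Mapk9 from -0.50 to -0.27. Whether the 2 genes differ in their response was not tested. Mapk10, the gene of the mainly neuronal JNK3, was below the array median at 3.64 ± 0.04 and 3.70 ± 0.05 (SD). Map2k4, whose product MKK4 activates JNK, read 8.01, 8.07 and 8.03 in wild-type and 7.95, 8.15 and 8.14 in knockout arrays. The groups overlapped, and Map2k4 differed by 0.04 (SE 0.10, limma adjusted p = 0.926).

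ERK kinases are activated by MEK1 and MEK2, the products of Map2k1 and Map2k2. Map2k1 read 10.06, 9.91 and 10.02 in wild-type and 9.82, 9.52 and 9.64 in knockout arrays. All knockout arrays were lower, and Map2k1 differed by -0.34 (SE 0.11, limma adjusted p = 0.229). Map2k1 had 1 probe set. Map2k2 read 9.02, 9.11 and 9.36 in wild-type and 9.09, 9.11 and 8.93 in knockout arrays. These values overlapped, with a difference of -0.12 (SE 0.12, limma adjusted p = 0.79).

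The ERK5 branch has a kinase of its own, MEK5, encoded by Map2k5, and 1 MAP kinase, encoded by Mapk7. Map2k5 read 6.43, 6.08 and 6.28 in wild-type and 7.01, 6.56 and 7.10 in knockout arrays. It was the member with the second largest difference, 0.63 (SE 0.16, limma adjusted p = 0.14), and its groups did not overlap. Of its 3 probe sets, the brightest and the dimmest were higher without overlap (0.63 and 0.50), and the other stood at -0.08. Both of the latter were dim, with means of 4.09 and 4.30 over the 6 arrays. Mapk7 read 5.93, 6.32 and 6.02 in wild-type and 6.08, 6.21 and 5.24 in knockout arrays. Its difference of -0.25 (SE 0.25, limma adjusted p = 0.793) came with a single low array, knockout replicate 3, and was 0.06 without it.

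Atypical MAP kinases, which lack a Map2k partner of the usual kind, gave differences near 0. Mapk6, the gene of ERK3, stood at -0.07 (limma adjusted p = 0.937) from 7.66 ± 0.40 (SD) in wild-type cells. Mapk4 and Mapk15 were below the array median, at 0.02 and 0.04.

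**Figure D4:**
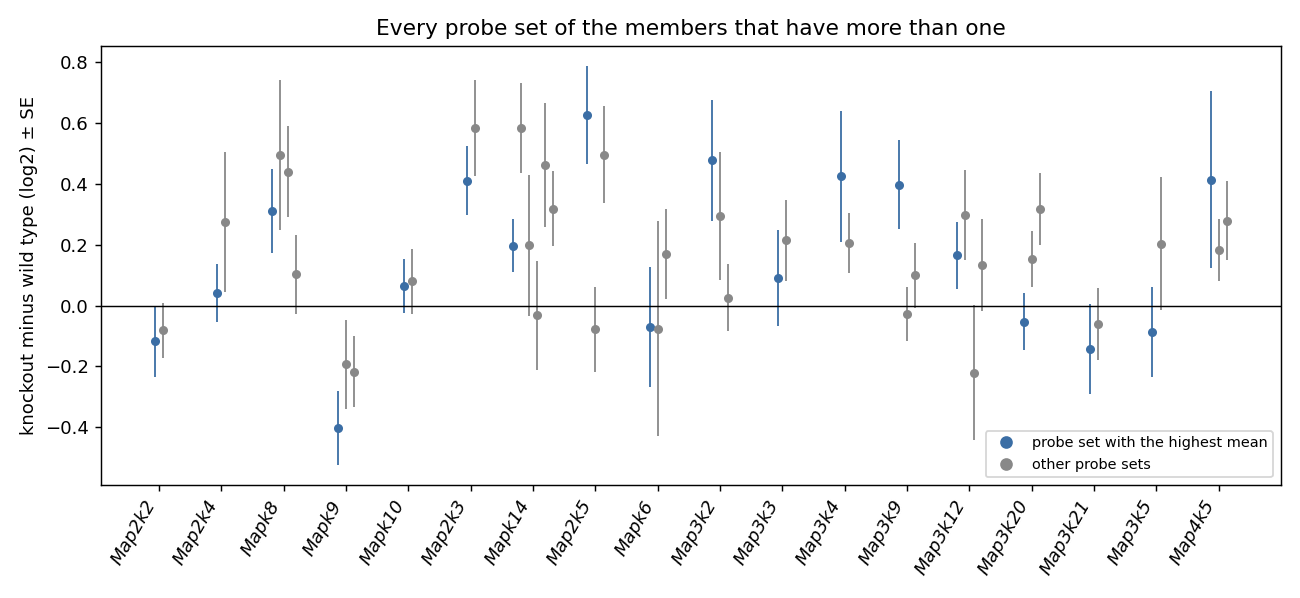
Difference between knockout and wild-type arrays with its standard error (log2) for every probe set of the 18 genes that have more than 1, the brightest in blue. All Mapk8 points lie above 0 and all Mapk9 points below it, while probe sets of Map2k5, Mapk14, Map3k12 and Map3k5 lie on both sides.

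Probe sets gave a check for 18 genes, of which 11 had all probe sets in the same direction. The other 7 genes had probe sets on both sides of 0, among them Map3k5, Map3k20 and Mapk6, whose mean over probe sets had the opposite sign to the brightest one. Of all 65 probe sets 42 were higher and 23 lower in knockout cells, and 1 passed, that of Mapk13. This count weighs genes with many probe sets more, such as Mapk14 with 6. By the brightest probe set of each gene, 18 of the 32 members were higher and 14 lower. Over all 17097 genes 7880 were higher and 9217 lower.

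MEKK kinases are large Map3k proteins that signal to JNK, p38 and ERK5, and all 4 had positive differences, with a median of 0.45 and 0 past the threshold. Map3k1, which encodes MEKK1, read 8.24, 8.10 and 8.46 in wild-type and 8.59, 8.68 and 9.21 in knockout arrays. The groups did not overlap, with a difference of 0.56 (SE 0.18, limma adjusted p = 0.225) that was 0.37 without knockout replicate 3. Map3k2 and Map3k4 stood at 0.48 and 0.42 with overlapping groups (limma adjusted p = 0.38 and 0.499). Map3k2 stood at 0.30 without knockout replicate 3, and Map3k4 at 0.18 without wild-type replicate 3. Map3k4 is the Map3k that GADD45 proteins bind and activate. Map3k3 stood at 0.09 (limma adjusted p = 0.894).

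Tpl2, the product of Map3k8, links Toll-like receptors and NF-kB1 p105 to ERK. Map3k8 ran from 7.96 to 8.83 among the wild-type arrays and from 8.04 to 8.43 among the knockout arrays. The wild-type arrays alone covered the whole knockout range, and the difference was -0.15 (SE 0.21, limma adjusted p = 0.863). The ASK kinases, which respond to oxidative stress, stood at -0.09 for Map3k5 and 0.25 for Map3k6, with limma adjusted p = 0.888 and 0.676. Map3k6 lay below the array median.

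Mixed-lineage and related kinases, which act mainly on JNK, went both ways. Map3k9 was dim, at 4.37 ± 0.18 in wild-type and 4.77 ± 0.24 (SD) in knockout cells, with a difference of 0.40 (limma adjusted p = 0.313) and no overlap. Map3k10 was also close to the median level, and its difference was -0.11 without overlap (limma adjusted p = 0.72). Map3k12, the dual leucine zipper kinase, stood at 0.17, Map3k11 at -0.03, Map3k20, the ribosome stress sensor ZAK, at -0.05, and Map3k21, below the array median, at -0.14.

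Map4k kinases lie at the top of the cascade in blood cells. Map4k1, the haematopoietic HPK1, read 8.19 ± 0.09 and 8.10 ± 0.04 (SD), a difference of -0.09 (limma adjusted p = 0.8). Map4k4 stood at -0.27 (limma adjusted p = 0.582), and at -0.13 without knockout replicate 1. Map4k5 stood at 0.41 with limma adjusted p = 0.673, and its wild-type arrays spread from 4.87 to 5.80, the widest wild-type spread in the family (SD 0.47). Its difference was 0.15 without knockout replicate 3 and 0.67 without wild-type replicate 3. All 3 of its probe sets were higher in knockout cells, with 0 past the threshold.

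The median SD between wild-type arrays was 0.12 for the members and 0.14 for all genes. Members' SDs ran from 0.03 to 0.47 in wild-type and from 0.02 to 0.53 in knockout arrays.

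Kinases and partners that work with the family under other names were set beside it. Of 6 measured kinases that act as a Map3k under other names, 0 passed and 5 were positive, and their median was 0.18. Araf, a RAF kinase, had the smallest p, at 0.34 (limma adjusted p = 0.203), followed by Taok1, a kinase that activates Map2k3, at 0.39 (0.481). Of 5 relatives of the Map4k kinases 0 passed (median -0.04), with Tnik at -0.31 (limma adjusted p = 0.201) and Pak2 at 0.17 (0.544). Of 10 RAS pathway genes 0 passed (median 0.01), led by the adaptor Grb2 at -0.32 (limma adjusted p = 0.185) and Rap1a at -0.29 (0.44).

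Downstream of the MAP kinases, 0 of 8 substrate kinases passed (median -0.04). Mapkapk2, the p38 target that stabilises cytokine mRNAs, stood at -0.39 and Rps6ka5, the chromatin kinase MSK1, at -0.24, with limma adjusted p = 0.473 and 0.472 and no overlap. Mapkapk2 read 8.37, 8.28 and 9.03 in wild-type and 8.15, 8.16 and 8.20 in knockout arrays, and its difference was -0.16 without the high wild-type replicate 3. Of 11 nuclear targets 0 passed (median -0.00433), with Elk4, a partner of serum response factor, at 0.51 (limma adjusted p = 0.178) and Mef2c at -0.37 (0.278). Scaffolds and partners were mostly negative, 16 of 19, with a median of -0.10, but 0 fell and 1 rose. The gene that rose was Gadd45a, which stood 1.21 higher (SE 0.14) at 6.99 against 5.78, with limma adjusted p = 0.00887. Without knockout replicate 2 it did not pass (1.18, limma adjusted p = 0.0651). Its relatives Gadd45g and Gadd45b, whose products also bind the Map3k4 kinase, stood at -0.54 and -0.30 (limma adjusted p = 0.217 and 0.45).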

How the data were processed

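Samples were grouped by their titles into 3 wild-type and 3 knockout arrays. The authors' deposited values are log2 signals made by RMA, a method of background correction, quantile normalization and summary per probe set. The submitters' processing notes name Affymetrix Expression Console 1.1. The log2 scale was read from the values (2.58 to 13.9). Precision is limited by the number of arrays. RMA leaves no detection call and compresses the folds of dim genes. Of 45141 probe sets, 104 controls were left out. Genes were named from the platform annotation: 28898 probe sets had 1 symbol, 551 several and 15588 none, and those with several name no gene here. Where a gene had several probe sets, the one brightest on average over the 6 arrays stood for it. No pair of arrays was identical (0 pairs), and correlations between arrays were 0.978 to 0.994.

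Differences (knockout minus wild type) were fitted with limma 3.58.1 in R 4.3.3 (lmFit, eBayes, no covariates), and p-values were adjusted by Benjamini-Hochberg across the 45037 probe sets (threshold 0.05). Members named with values on every array are those past the threshold, those without overlap and a difference of at least 0.5, the JNK and p38 genes Mapk8, Mapk9 and Mapk14, all Map2k genes, and further members (Mapk7 and others) chosen after their values were seen. The other lists give members past the threshold or the 2 with the smallest p, and Gadd45g and Gadd45b beside Gadd45a were added after seeing their values. The members and lists were chosen with earlier results of these data known. Alternatives covered dim probe sets, probe set choice, scaling, variance model, array weights, the replicate number, the threshold and leaving out each array. The limma step was tested on simulated data, where it recovered 12% of differences of 0.5, 60% of differences of 1 and 94% of differences of 2. Of 137 calls there, 5 were false. A member with a difference near 0.5 that did not pass is therefore not shown to be unchanged. Promoters were the 250 bases before the start in the RefSeq table, and plots were made in Python 3.11.15 (matplotlib 3.10.9).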

Additional observations from a re-analysis of the deposited data

How the results depend on the processing

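The members called higher numbered 0 after a further quantile normalization, 2 with the replicate number as a block (replicate block), and 0 to 1 with 1 array left out, against 1 otherwise; 0 were called lower in all 15 alternatives. Under the block Map2k5 passed as well (0.63, limma adjusted p = 0.0446). Deviations of same-numbered arrays correlated at 0.05, 0.13 and 0.32, so the numbers were not taken to pair samples, and not every array correlated best with its own number. Over all genes the block gave 292 higher and 250 lower calls, against 184 and 101. The median difference of the members stayed between 0.00205 and 0.0953. Signs changed only for members that did not pass under any setting: as the mean of probe sets Map3k20 was 0.14, Map3k5 0.0582 and Mapk6 0.00755, and with array weights Map3k11 was 0.0326. With 1 array left out the ranges that crossed 0 were -0.113 to 0.0233 for Map3k11, -0.0883 to 0.00539 for Map3k20, -0.27 to 0.00497 for Map3k21, -0.0181 to 0.269 for Map3k3, -0.246 to 0.0377 for Map3k5, -0.361 to 0.0758 for Map3k8, -0.00129 to 0.12 for Mapk15, -0.11 to 0.10 for Mapk4, -0.27 to 0.13 for Mapk6 and -0.43 to 0.057 for Mapk7. The cause of these changes was not tested. Leaving out dim probe sets removed 6 members, and leaving out probe sets ending in x or s removed Map3k4.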
